A study of Drosophila melanogaster with 4 samples.

Results

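The data described here are the start sites of capped RNA in control testes of Drosophila melanogaster, taken as every tag cluster of the table deposited for the control group. That table held 32731 tag clusters with 56519714 tags, and the merged cluster set of the whole series held 43632. The series has 4 libraries in 2 groups, and only the control group of 2 libraries is described. The control flies had the genotype bamGAL4, a germline driver active in late spermatogonia, with no RNAi transgene. The other group carried KmgRNAi in addition and is not analysed here. Both groups shared the driver, the tissue and the rearing: crosses stood at 25 °C for 3 days, the progeny developed at 29 °C, and whole testes came from males 0 to 2 days old. Each RNA sample pooled 150 pairs of testes. A testis is a mixture of germ cells of all stages with somatic cyst, hub and muscle sheath cells, so fewer cells of a type and less RNA per cell cannot be told apart.

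Cap analysis of gene expression, or CAGE, sequences the 5′ ends of capped RNA. Each tag marks a capped end, read here as the base at which RNA polymerase II began a transcript. Whether each capped end arose by initiation was not tested. Neighbouring start bases are grouped into a tag cluster, which stands for a promoter, and the base with the most tags is its dominant start. In animals some promoters fire from a single base and others from many bases spread over a nucleosome-free stretch. The fly testis is known for large sets of genes switched on in primary spermatocytes, whose RNAs are stored and translated in spermatids as the sperm tail, the mitochondrial derivative and the compact sperm chromatin are built.

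Both control libraries had been combined in 1 deposited value per cluster, so no spread between libraries can be given and no test was made. Levels were scaled to tags per 1000000 (TPM below), with 1 TPM equal to 56.5 tags. A CAGE level needs no correction for transcript length. Counting error was small for strong promoters: at 100 TPM or more, the exact 95% Poisson interval of a gene reached at most 2.61% to either side. A gene given without a tag had none in the listed clusters, which is not a level of 0: every listed cluster of a single start position held at least 50 tags, so an isolated start of up to 49 tags, or 0.867 TPM, could be missing from the table. Such intervals cover counting error only, and differences between flies, dissections and library preparations are not in them.

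Clusters ranged from 2 tags to 2532771 tags, with a median of 79 tags or 1.40 TPM. The largest cluster alone took 4.48% of all tags, the 100 largest took 30.8% and the 1000 largest took 65.6%. Level minimums of 1, 10, 100 and 1000 TPM were reached by 18491, 7575, 1791 and 109 clusters. The median cluster held 5 start positions, and its interquantile width, the stretch from the 10% to the 90% point of its tags, was 30 bp. Dominant starts together carried 50.5% of all tags. Clusters of a single position numbered 979, or 2.99%, and each of them held at least 50 tags, while 8468 clusters, or 25.9%, had 2 positions.

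Most control tags lay at known promoters, although most clusters did not lie there. Clusters whose dominant start lay within 100 bp of an annotated transcription start site (TSS) on the same strand made up 38.4% of clusters (95% Wilson interval 37.9 to 38.9%) and carried 91.7% of tags. The 20167 clusters elsewhere carried 8.32% of tags. Coding exons held 21.8% of clusters with 1.81% of tags, antisense positions held 11.5% with 0.686%, and introns held 11.1% with 1.79%. Clusters in 5′ UTRs past the 100 bp window were 6.67% of the total and carried 3.02% of tags, the largest tag share off annotated TSS. Positions between genes took 7.16% of clusters, 3′ UTRs 2.29% and noncoding exons 1.16%.

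**Figure D1:**
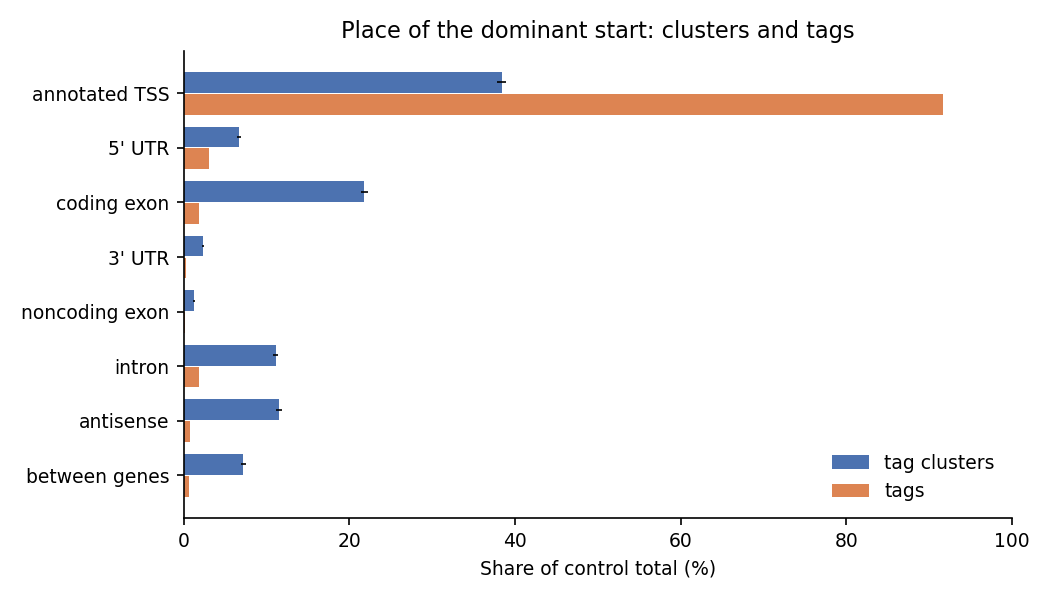
Horizontal bars give the share of control tag clusters (blue, with 95% Wilson intervals) and of control tags (orange) in each place of the dominant start, in percent of the control total. Annotated TSS hold 38.4% of clusters and 91.7% of tags, whereas coding exons hold 21.8% of clusters and 1.81% of tags.

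The median cluster at an annotated TSS stood at 10.2 TPM. Elsewhere the median lay between 0.389 TPM for antisense clusters and 1.01 TPM for 5′ UTR clusters. The share at annotated TSS rose with the level: 10.4% of clusters under 1 TPM, 43.6% from 1 to 10 TPM, 80.6% from 10 to 100 TPM, 93.2% from 100 to 1000 TPM and 96.3% at 1000 TPM and over. Even so, 1241 clusters off annotated TSS reached 10 TPM and 119 reached 100 TPM. The 14240 clusters under 1 TPM were 43.5% of all clusters and carried 0.504% of tags.

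Dominant starts and annotated TSS rarely fell on the same base. Of the 12564 clusters at annotated TSS, 5.88% had the dominant start on the annotated base, 30.1% within 5 bp of it, 41.9% within 10 bp and 86.2% within 50 bp. The dominant start lay downstream in 65.9% of them and upstream in 28.2%, with a median offset of 4 bp downstream. The most frequent offset was 2 bp downstream on the plus strand and 4 bp on the minus strand. A shift of 1 or 2 bases between the strands is not resolved here.

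Gene levels are sums over the clusters at a gene's annotated TSS or inside it on its strand. Tags fell on 11461 genes, 10330 of which reached 1 TPM, with a median of 18.7 TPM among those. Levels of 10, 100 and 1000 TPM were reached by 6659, 1851 and 113 genes, and 395 genes held 50% of all tags. CG18628 stood alone at the top with 44812 TPM (44757 to 44867), which was 4.48% of all control tags. Its cluster on chromosome arm 3L, from 10639635 to 10639958 on the plus strand (BDGP6.54), held 114 start positions, but 79.6% of its tags came from the base at 10639756, 16 bp downstream of the annotated TSS, and its width was 4 bp.

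CG46059 came next with 15101 TPM, followed by scpr-C, a gene of a cysteine-rich secretory protein, with 13564 TPM. CG17376 had 10848 TPM and ocn, a testis gene of the janus family found in mature sperm, had 10697 TPM. CG33340, CG31820 and CG42688 stood at 9792, 8719 and 8402 TPM. The strongest gene of the cup and comet group, which is transcribed after meiosis, was w-cup with 7072 TPM. CG2127 and CG8701 followed with 6022 and 5349 TPM. CG31740, Obp44a, CG12699, CG12860 and CG31226 had 4757, 4721, 4557, 4088 and 4076 TPM, and Obp44a codes for an odorant-binding protein. MtnA, a copper-binding metallothionein, had 3949 TPM, and CG9920, CG31639 and CG31988 closed the first 20 genes with 3934, 3598 and 3314 TPM. Of these 20 genes, 15 have only a CG number as a name, against 36.9% of all genes at 1 TPM or more. Together the 20 genes held 17.7% of control tags.

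**Figure D2:**
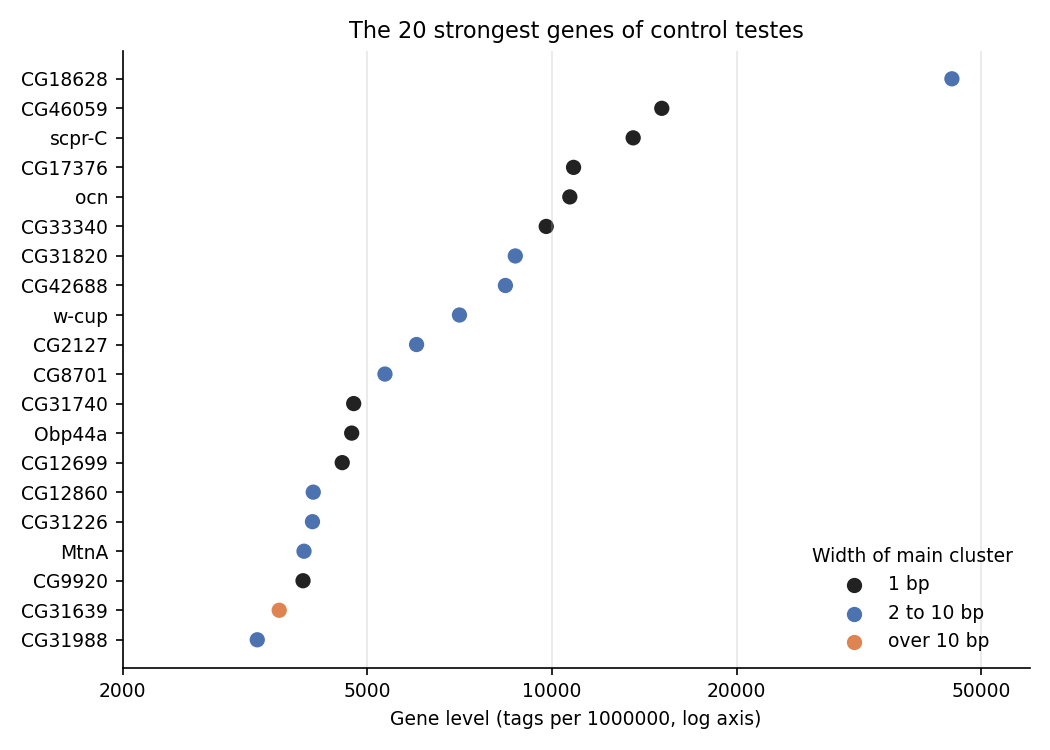
Points give the summed level of the 20 strongest genes in tags per 1000000 on a log axis, coloured by the interquantile width of the main cluster. CG18628 lies at 44812 TPM, the next gene at 15101 TPM, and CG31639 is the 1 gene with a main cluster over 10 bp wide.

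The strongest genes started from almost a single base. All 20 had the main cluster at an annotated TSS, 19 of the 20 main clusters were sharp, meaning 10 bp wide or less, and 9 were 1 bp wide. The dominant base held 97.4% of the tags of the scpr-C cluster, which was the highest share of the 20, and 56.6% in CG31988, which was the lowest, with a median of 86.5%. Sharp did not mean few positions. The w-cup cluster held 200 start positions and the CG2127 cluster held 304, the most of any control cluster, yet both were 2 bp wide because the dominant base carried 86.9% and 84.8% of their tags. CG31639 was the exception with a width of 24 bp.

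Width was not a simple function of level over the whole set. The median width was 20 bp under 1 TPM, 33 bp from 1 to 10 TPM, 49 bp from 10 to 100 TPM, 46.5 bp from 100 to 1000 TPM and 6 bp at 1000 TPM and over. The sharp share was 33.0% in the lowest bin, fell to 14.5% and 14.2% between 10 and 1000 TPM, and was 56.0% (46.6 to 64.9%) among the 109 strongest clusters. The dominant base held a median of 55.6% of tags in the lowest bin, 28.8% from 10 to 100 TPM and 67.0% at 1000 TPM and over. Below 1 TPM the median cluster had only 2 start positions, against 23 from 10 to 100 TPM and 78 in the top bin. A narrow weak cluster and a narrow strong cluster are therefore not the same measurement. Isolated single positions of up to 49 tags are not listed. The width and sharp share of the bin under 1 TPM depend on that limit.

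**Figure D3:**
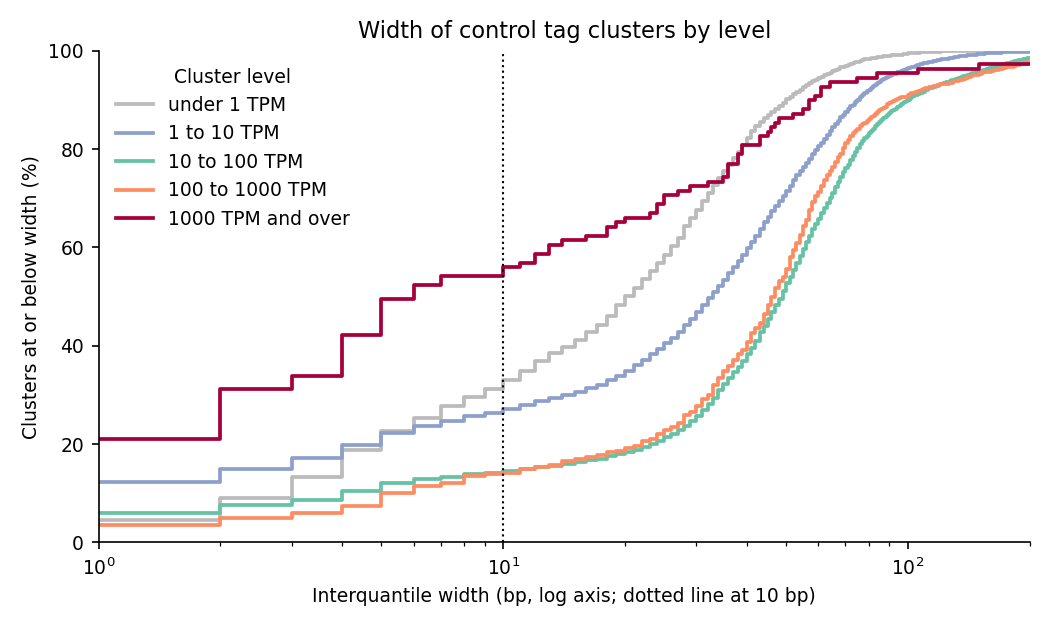
Each line gives the percentage of control tag clusters at or below an interquantile width, in bp on a log axis, for 1 level bin, and the dotted line marks 10 bp. At 10 bp the line of clusters of 1000 TPM and over stands at 56.0%, above the lines of the bins from 10 to 1000 TPM at 14.5% and 14.2%.

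Among the 313 genes of 500 TPM or more, the main cluster was 1 bp wide in 38, sharp in 120 (38.3%), wider than 50 bp in 72 and wider than 100 bp in 12. The strongest genes with a 1 bp main cluster were CG46059, scpr-C, CG17376, ocn and CG33340. The broadest belonged to gish, a casein kinase of the gamma type, at 442 bp, where the dominant base held 8.48% of the tags of 201 start positions. CG13245 followed with 409 bp, although its dominant base held 68.9% of tags. CG16758, CG9016 and the polyubiquitin gene Ubi-p63E had widths of 315, 295 and 264 bp. For gish and CG9016 the main cluster lay in the 5′ UTR and in a coding exon, and the other 3 lay at annotated TSS.

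Several of the strongest genes were neighbours. The 113 genes of 1000 TPM or more formed 15 pairs with main starts within 5 kb of each other, with 26 genes in them. The same count was not made over all genes, so whether strong genes pair more often than others was not tested. CG2127 and CG8701, at 6022 and 5349 TPM, fired away from each other from starts 1064 bp apart on arm 2R. CG46059 and CG42688 lay 951 bp apart on the same strand of 2L. The sperm tail genes Mst84Da and Mst84Db, at 2227 and 2118 TPM, were divergent at 195 bp, and Mst84Dc lay 956 bp from Mst84Db with 1162 TPM. The ocn start was 1002 bp from that of janB, from which it is separated on the same strand, and janB stood at 2558 TPM. The don juan genes dj and djl were 1497 bp apart with 2978 and 1504 TPM. S-Lap1 and S-Lap2, which code for leucylaminopeptidases of sperm, were 2750 bp apart with 1972 and 1357 TPM.

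The strongest genes were autosomal. Arms 2L, 2R, 3L and 3R held 8, 5, 1 and 6 of the first 20 genes, and X, 4 and Y held 0. Protein-coding genes reached 1 TPM about equally often on X (68.4%, 66.5 to 70.4%) and on the large autosome arms (67.9%, 67.1 to 68.8%). At 100 TPM the shares were 8.83% (7.72 to 10.1%) on X and 13.8% (13.2 to 14.5%) on the autosome arms. At 1000 TPM they were 0.0911%, or 2 of 2196 genes, and 0.934%, or 109 of 11669 genes. X carried 7.89% of control tags. Of the 23 protein-coding genes of Y, 8 reached 1 TPM, led by ARY with 30.5 TPM, FDY with 21.5 TPM and the axonemal dynein gene kl-5 with 19.3 TPM. The Y pseudogene CR45771 had 44.1 TPM.

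By gene class, 9497 of 13986 annotated protein-coding genes (67.9%) reached 1 TPM and took 96.1% of tags. Of 3304 annotated noncoding RNA genes, 777 (23.5%) did so and took 2.25% of tags. Pseudogenes at 1 TPM numbered 43 of 340, snoRNA genes 8 of 269 and snRNA genes 5 of 32, and none of the 312 tRNA or 115 rRNA genes had a tag. The strongest noncoding RNAs were lncRNA:CR44455 at 1230.4 TPM and lncRNA:CR9284 at 964 TPM on 2R. The next 5 all lay on X: lncRNA:CR32660 at 885 TPM, lncRNA:CR32658 at 788 TPM, lncRNA:CR43278 at 635 TPM, lncRNA:CR43157 at 456 TPM and lncRNA:CR32661 at 437 TPM. CR32660, CR43157 and CR32661 start within one stretch of X between 11918451 and 11920579 on the minus strand, with widths of 1, 1 and 2 bp.

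The share on X was higher among strong noncoding genes than among strong protein-coding genes, with no test made. Of 37 noncoding RNA genes at 100 TPM or more, 12 lay on X (32.4%, 19.6 to 48.5%), against 14.6% of annotated noncoding RNA genes. Of 1810 protein-coding genes at that level, 194 lay on X (10.7%, 9.38 to 12.2%), against 15.7% of annotated ones. At 10 to 100 TPM the noncoding share on X was 8.22% (5.59 to 11.9%), so the high share rested on these 12 genes of the strongest group.

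Genes with many near-identical copies were nearly absent from the table. Of 111 annotated replication-dependent histone genes, 110 had no tag and the other had 0.0708 TPM, while the single-copy gene His4r stood at 349.6 TPM. No tag fell on the 13 annotated Stellate genes, and 4 of the 6 Hsp70 genes had none. The treatment of reads that map to several places is not stated by the labels, so a value of 0 for a repeated gene is not a measurement of its transcription. The same limit touches scpr-C and scpr-A, closely related neighbours at 13564 and 3232 TPM, whose split between the copies is uncertain. Transposable elements held 118 clusters with 0.157% of tags, of which 1 cluster in an mdg1 element had 725 TPM, 19 clusters in HeT-A, the telomeric retrotransposon, summed to 282 TPM and 1 cluster in gypsy4 had 128 TPM.

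Several of the strongest clusters off annotated TSS held most of the tags of their gene. In the 5′ UTR, the S-Lap3 cluster had 1992 TPM, was 1 bp wide, lay 122 bp upstream of the nearest annotated TSS and held 90.9% of the tags of its gene. Pen, which codes for an importin alpha, had 1526 TPM from a cluster 150 bp downstream, 93.2% of its gene. The cluster of Lasp, a LIM and SH3 domain protein that binds actin, had 1072 TPM, 94.9% of its gene. Among 1851 genes of 100 TPM or more, 129 had under 50% of their tags at annotated TSS. In 78 of these the main start lay within 500 bp of an annotated one, and the main cluster was in the 5′ UTR in 74, in an intron in 34 and in a coding exon in 14.

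Introns held a start of unusual strength in Rab3-GAP, which codes for a subunit of a GTPase-activating complex. It had 1121 TPM and a width of 2 bp, lay on 2L from 12058919 to 12059185 on the minus strand, and held 99.3% of the tags of the gene, whose annotated TSS had 4.42 TPM. CG33060 had 445 TPM from an intron and none elsewhere, and CG10126 had 365 TPM there and 30.6 TPM at annotated TSS. The gene kmg, the target of the RNAi in the other group, had 48.5 TPM in control, 46.7 TPM of it from an intronic cluster 188 bp downstream of its annotated TSS.

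In coding exons the strongest clusters were those of Cyp1, a cyclophilin, at 444 TPM, DppIII, a dipeptidyl peptidase, at 403 TPM, and wash, an activator of actin branching, at 323 TPM. They were broad, at 130, 113 and 67 bp, and held 98.3%, 91.7% and 87.6% of their genes' tags. In 3′ UTRs the strongest were CG6569 at 370.3 TPM, maf-S, a small Maf transcription factor gene, at 104 TPM, and the chaperonin gene CCT7 at 71.0 TPM. The clusters in maf-S and CCT7 lay 185 and 141 bp upstream of the nearest annotated TSS on their strand, past the 100 bp window. In noncoding exons, lncRNA:bxd of the bithorax complex had 91.6 TPM, and the pseudogenes CR42875 and CR30409 had 62.9 and 40.3 TPM. The CR30409 cluster lay 135 bp upstream of the nearest annotated TSS on its strand.

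The strongest antisense cluster ran against CycC, the cyclin of the Mediator kinase module, with 354 TPM and a width of 185 bp, while CycC itself had 7.25 TPM. It lay 138 bp upstream of the nearest annotated TSS on its own strand, just past the 100 bp window. Downstream on that strand, the respiratory gene UQCR-C1 had 5.22 TPM and no tag at an annotated TSS. Whether the cluster is the promoter of UQCR-C1 was not tested. The cluster against MetRS-m, a mitochondrial methionyl-tRNA synthetase gene, had 137 TPM and the one against Nlg4, a neuroligin gene, had 106 TPM, 131 bp upstream of an annotated TSS. Between genes the strongest had 237 TPM on 3L from 8110171 to 8110480, 223 TPM on 2R from 2365447 to 2365632 and 186 TPM on 3R from 21869522 to 21869644. The first and the last of these lay 122 and 105 bp upstream of an annotated TSS. With a window of 500 bp in place of 100 bp, the tag share at annotated TSS was 95.9%.

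Compared at the same level of 10 to 100 TPM, coding exon clusters were the broadest. Their median width was 84 bp and 3.76% (2.05 to 6.78%) were sharp. Clusters at annotated TSS had a median of 47 bp with 16.5% (15.5 to 17.6%) sharp, intron clusters 47 bp with 6.86% and clusters between genes 49 bp with 2.68%. Coding exon clusters were also more frequent in strong genes: 21.1% of protein-coding genes of 1 to 10 TPM had at least 1, then 38.3% from 10 to 100 TPM, 69.0% from 100 to 1000 TPM and 77.5% at 1000 TPM and over. Their share of all tags of the genes in a bin went the other way, from 3.78% over 2.90% and 2.14% to 0.906%. Among genes with such a cluster, the median share of the gene's tags was 6.25%, 1.60%, 0.920% and 0.818%. Svil, the supervillin gene, had the most clusters of any gene with 25, followed by salto with 23, Syp with 22, and sm and Gpdh3 with 21 each.

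Several promoters were in use in a minority of genes. A gene was counted when at least 2 clusters at annotated TSS, over 100 bp apart, each held 10% or more of its tags. Of 6659 genes at 10 TPM or more, 594 met this (8.92%, 8.26 to 9.63%), 548 with 2 promoters and 46 with 3. The share was 9.30% from 10 to 100 TPM and 7.94% at 100 TPM and over, and 5 of the 113 genes at 1000 TPM had several promoters. The median distance between the 2 strongest was 1274.5 bp and the longest was 105679 bp. In 231 genes (38.9%) the second promoter had over 0.5 times the level of the first. The second lay upstream in 308 genes and downstream in 286.

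Both promoters led to transcripts with the same annotated start codon in 389 of the 592 genes where this could be read, and to different ones in 203 (34.3%). Both promoters had the same shape class in 419 genes (70.5%), with both sharp in 84 and neither in 335. In the other 175 genes (29.5%), 1 was sharp and the other not. CG12902 had the strongest such pair, a promoter of 2047 TPM that was 1 bp wide and one of 888 TPM that was 38 bp wide. Hsp83, which codes for the Hsp90 chaperone, used 982 and 666 TPM from sharp starts only 182 bp apart. The hnRNP gene sm used 1080 and 385 TPM from starts 83326 bp apart with different start codons. Acam, a testis calmodulin relative, had 1314 and 208 TPM, and eff, a ubiquitin-conjugating enzyme gene, had 623 and 238 TPM.

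The most even pairs among genes of 100 TPM or more were those of SRPK, an SR protein kinase gene, with 32.8 and 32.7 TPM, and of Snp with 47.3 and 46.3 TPM. CG43675 had 400.2 and 385 TPM from starts 477 bp apart. Desat1, an acyl-CoA desaturase gene, had 53.3 and 49.8 TPM, both sharp. Syp, an RNA-binding protein gene, had 339.8 and 313 TPM from starts 33282 bp apart with different start codons. CG14384 had 204 and 183 TPM and CG33111 had 373 and 333 TPM. The profilin gene chic had 263 and 234 TPM, and 67.5 TPM from its weakest. In chic the strongest promoter was 56 bp wide and the second was 5 bp wide.

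Of the other genes with 3 promoters, the anchoring protein gene Akap200 used 278, 148 and 93.9 TPM with widths of 69, 132 and 2 bp. The poly(A)-binding protein gene pAbp used 138, 108 and 99.1 TPM, and none of its promoters was sharp. The arginine kinase gene Argk1 used 149, 76.8 and 71.4 TPM, with widths of 1, 14 and 1 bp. CG44774 on X used 137, 37.0 and 32.6 TPM.

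**Figure D4:**
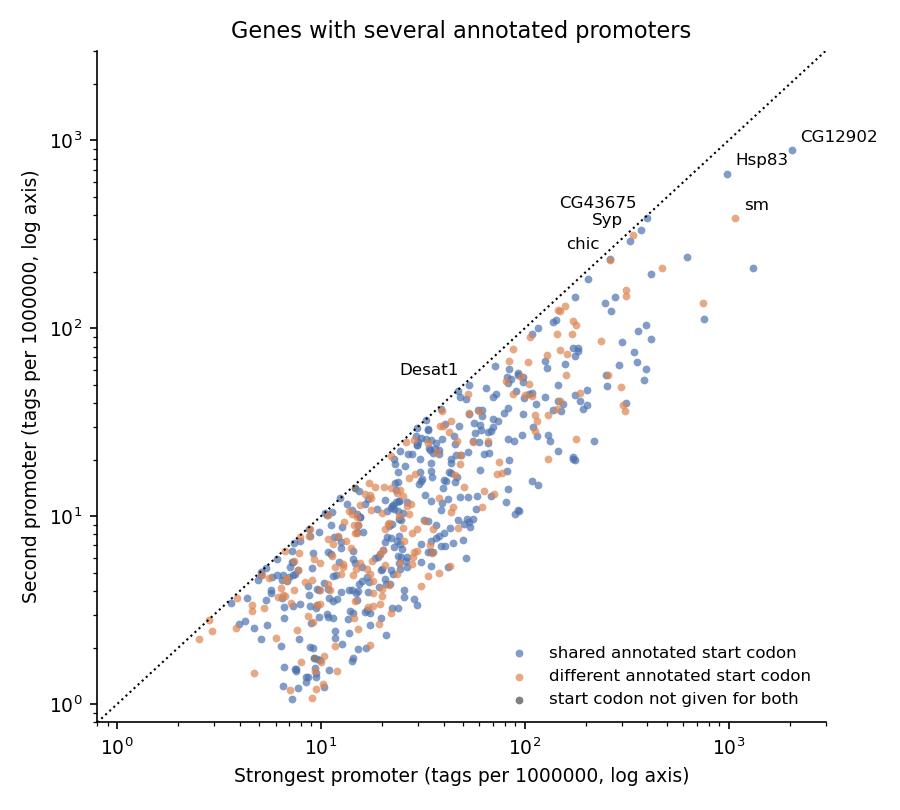
Each point is 1 gene with several annotated promoters, with the level of the strongest on the horizontal axis and of the second on the vertical axis, both in tags per 1000000 on log axes, and the dotted line marks equal levels. Blue points share the annotated start codon (389 genes) and orange points do not (203 genes), and CG43675 and Syp lie close to the line at 400.2 and 385 TPM and at 339.8 and 313 TPM.

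Most opposite-strand starts just upstream of promoters belonged to neighbouring genes. Of 11088 annotated TSS clusters at 1 TPM or more, 3199 (28.9%, 28.0 to 29.7%) had a cluster on the opposite strand within 500 bp upstream. In 84.2% of these the partner was itself at an annotated TSS, that is, a pair of genes facing away from each other. The 506 others were 4.56% of the annotated clusters, and their partners had a median of 1.12 TPM, against 13.4 TPM for annotated partners. The strongest partners off annotated TSS were 5′ UTR starts of known genes, such as 345 TPM of Cdc37 opposite dlt.

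Genes of the late spermatid list, chosen with earlier results of these data known, were mostly strong. All 31 had at least 1 TPM, beside 67.9% of all protein-coding genes, and 12 reached 1000 TPM, beside 111 of 13986. Their median was 586 TPM against 7.14 TPM over all protein-coding genes. After ocn and w-cup came dj, a protein of the sperm mitochondrial derivative, with 2978 TPM, janB with 2558 TPM and the protamine gene ProtB with 2286 TPM. Its near-identical partner ProtA had 586 TPM, a split that is as uncertain as that of the scpr genes, and the sperm chromatin gene Mst77F had 1291 TPM. The lowest were fzo, the mitofusin of spermatids, with 18.5 TPM, cola with 20.9 TPM and p-cup with 28.5 TPM. Main clusters were sharp in 11 of the 31. By level, 9 of the 12 genes at 1000 TPM or more were sharp, beside 56.8% of all protein-coding genes at that level, and 2 of the 14 from 100 to 1000 TPM, beside 13.7%. The 9 sperm leucylaminopeptidase genes had a median of 1241 TPM, led by S-Lap3, S-Lap1 and loopin-1 with 2191, 1972 and 1857 TPM, and 5 were sharp. By level, 3 of 5 were sharp at 1000 TPM or more, beside the same 56.8%, and 2 of 3 from 100 to 1000 TPM, beside 13.7%.

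Genes of the sperm tubulins and dyneins ranged widely. The testis gene betaTub85D had 877 TPM, alphaTub84B had 806.5 TPM and alphaTub84D had 388 TPM. Of the dynein genes, the light chain gene ctp had 230.0 TPM and the heavy chain genes Dhc98D, Dhc16F, Dhc36C, kl-5 and Dhc62B had 49.6, 24.3, 23.9, 19.3 and 18.3 TPM. The heavy chain gene kl-3 had 0.920 TPM, none of it at an annotated TSS, and no tag was listed for kl-2, Dhc93AB or Sdic1. The maternal gene alphaTub67C had none either. The 13 genes of the meiotic arrest complex tMAC and the testis TAFs switch on the spermatocyte programme. All exceeded 1 TPM, beside 67.9% of all protein-coding genes, and their median was 36.0 TPM. They were led by mip40, also a subunit of a general complex, with 192 TPM. The arrest genes vis and sa followed with 47.5 and 43.9 TPM, while comr had 4.44 TPM. The limit given above for repeated genes may apply to Sdic1 and to vis, whose neighbour achi had 28.2 TPM.

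Testis copies of metabolic genes were often, not always, above their general partners. For the respiratory chain the testis copy was higher in 10 of 13 pairs, with a median ratio of 1.92. ND-51 recurs as a general partner, so not all pairs are independent. Cyt-c-d, the cytochrome c of spermatids, had 2160.4 TPM and Cyt-c-p had 311 TPM. UQCR-14L had 521 TPM against 36.6 TPM for UQCR-14, and ND-51L1 had 150 TPM against 14.5 TPM for ND-51. The reverse held for COX7AL, ATPsynCF6L and ATPsynGL, with ratios of 0.755, 0.747 and 0.575. COX6AL had 829 TPM, and COX7A, Cyt-c-p and ATPsynC led the general genes with 627, 311 and 266 TPM. The level of UQCR-C1 in that list, 5.22 TPM, does not count the 354 TPM cluster upstream of it described above. None of the 15 testis copies had a sharp main cluster, and their median width was 48 bp. The 19 general genes were much alike, with 1 sharp and a median width of 44 bp. Over all protein-coding genes, 16.2% were sharp from 10 to 100 TPM and 13.7% from 100 to 1000 TPM.

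For the proteasome the testis copy was higher in 7 of 13 pairs, with a median ratio of 1.36. Prosalpha4, Prosbeta2, Prosbeta4 and Prosbeta5 recur as general partners, so not all pairs are independent. Prosalpha4T2 had 289.6 TPM against 58.9 TPM for Prosalpha4, and Prosbeta4R2 had 287 TPM against 99.9 TPM for Prosbeta4. Prosalpha3T, in contrast, had 25.4 TPM against 297 TPM for Prosalpha3. Prosbeta4R1 had 166 TPM, and Prosbeta1 and Prosbeta3, which have no testis copy in the list, led the general genes with 336 and 322 TPM. Prosalpha1 had no listed tag, and since it lies beside a related copy, Prosalpha1R, the limit given above for repeated genes applies to it. None of the 13 testis proteasome genes or of the 19 general ones with tags had a sharp main cluster. Over all protein-coding genes the sharp share was 16.2% from 10 to 100 TPM and 13.7% from 100 to 1000 TPM.

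Genes of cytosolic ribosomal proteins had narrower main clusters than those of mitochondrial ones. The cytosolic genes were led by RpLP2, RpS29 and RpS27A with 1254, 901 and 825 TPM. All 93 reached 10 TPM, beside 6304 of 13986 protein-coding genes, and their median was 265 TPM. Their main clusters had a median width of 12 bp, 43 of 93 (46.2%) were sharp, 64 were 20 bp wide or less, and none was 1 bp wide. From 100 to 1000 TPM, 40 of 73 were sharp (54.8%), beside 13.7% of all protein-coding genes at that level. The 73 mitochondrial genes had a median of 23.9 TPM, led by mRpS17, mRpL53 and mRpL42 with 153, 114 and 112 TPM. Their median width was 56 bp and 1 of them (1.37%) was sharp. From 10 to 100 TPM that was 1 of 59 (1.69%), beside 16.2% of all protein-coding genes. Copies of cytosolic genes such as RpS15Ab and RpLP0-like stood lowest, at 13.0 and 15.3 TPM. Of 12 housekeeping genes, Ubi-p63E, Hsp83 and Act42A led with 1979.6 (264 bp wide), 1689 and 1017 TPM, and the list's median was 363 TPM.

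**Figure D5:**
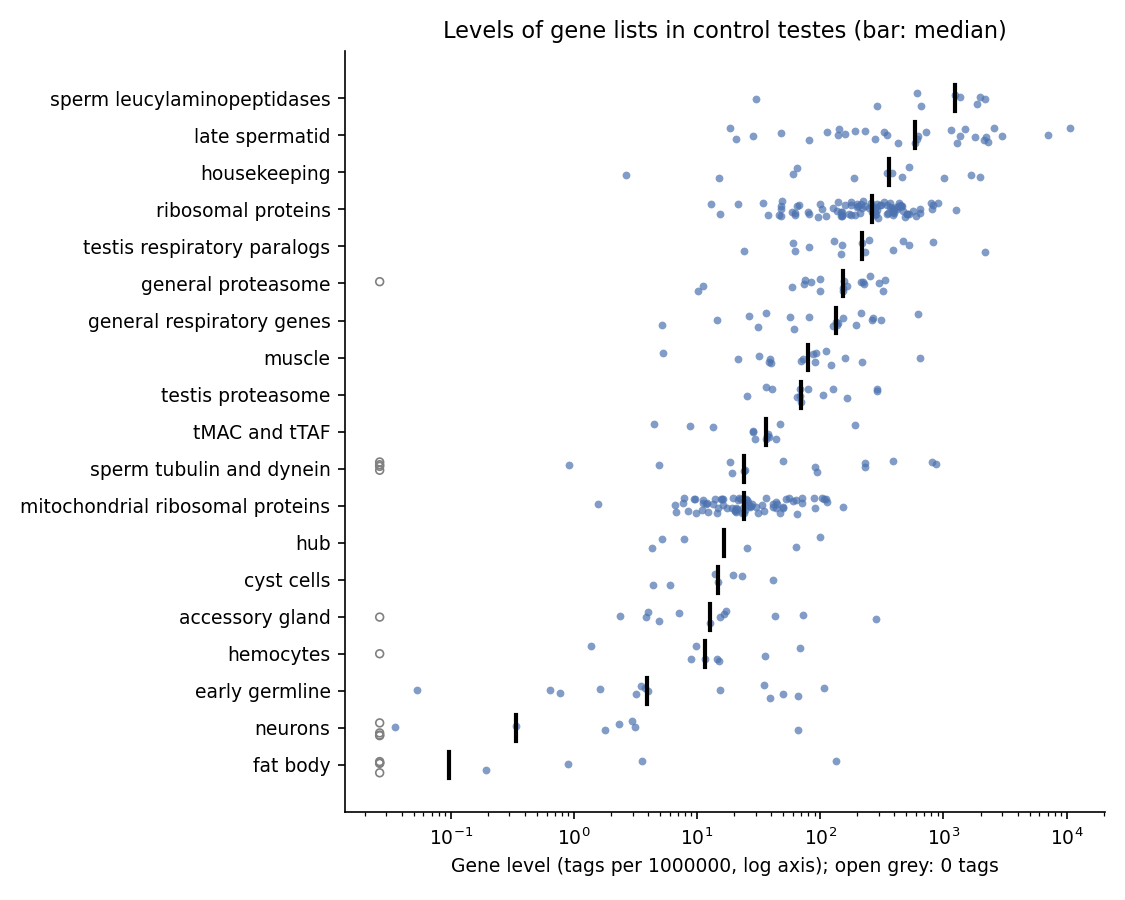
Each point is 1 gene of a list, with its level in tags per 1000000 on a log axis. Black bars mark medians, and open grey circles, drawn left of the scale of measured values, mark genes with 0 tags. Sperm leucylaminopeptidase and late spermatid genes have the highest medians at 1241 and 586 TPM, and neuron and fat body genes the lowest at 0.336 and 0.0973 TPM.

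Markers of the somatic cells of the testis all reached 1 TPM, beside 67.9% of all protein-coding genes. Their list medians lay below that of the late spermatid genes. Early germline genes were low, with a median of 3.91 TPM over 14 genes, led by Rbp9, stai and mei-P26 with 108, 66.5 and 49.7 TPM. Among them bam had 3.79 TPM and nanos had 1.65 TPM, while vas, tut and otu stayed under 1 TPM at 0.778, 0.637 and 0.0531 TPM. The 7 cyst cell genes had a median of 14.9 TPM, led by dome, eya and so with 41.7, 23.0 and 19.5 TPM. The 6 hub genes had a median of 16.6 TPM, led by Fas3, shg and dpp with 99.8, 64.0 and 25.4 TPM, and the niche ligand gene upd1 had 4.30 TPM. All 16 muscle genes reached 1 TPM with a median of 80.2 TPM, led by Act87E, Act57B and Mlc2 with 648, 219 and 158 TPM. Some of these levels came mostly from clusters off annotated TSS. The share of tags at annotated TSS was 0% for CadN, 4.85% for sls, 18.4% for Mhc and 31.5% for zfh1. In the early germline list it was 19.7% for bgcn, 32.4% for mei-P26 and 0% for vas and otu. A start near the annotated TSS of several genes was counted for 1 gene only, so 0% does not show a silent promoter.

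Markers of 2 other tissues stood near the cyst cell and hub lists: the accessory gland genes had a median of 12.8 TPM and the hemocyte genes of 11.6 TPM, both above the early germline median. Neuron and fat body genes had medians of 0.336 and 0.0973 TPM. Of 13 accessory gland genes, 12 reached 1 TPM, beside 67.9% of all protein-coding genes, and Ebp had no tag. The list summed to 485 TPM, or 0.0485% of tags. Acp95EF, Acp62F and SP, the sex peptide gene, led it with 285, 72.6 and 42.6 TPM. Of the 12 main clusters 10 were sharp, beside 21.9% of all protein-coding genes at 1 TPM or more and 33.0% from 1 to 10 TPM. Sharp main clusters were also found in 7 of 8 hemocyte, 8 of 16 muscle and 4 of 7 cyst cell genes. The counts were lower in the hub, neuron and early germline lists, at 2 of 6, 2 of 5 and 2 of 11. Of 9 hemocyte genes, 8 reached 1 TPM, beside the same 67.9%, and NimC1 had no tag. The collagen genes vkg and Col4a1 led this list with 68.8 and 35.9 TPM, followed by Hml with 15.2 TPM. Neuron genes reached 1 TPM in 5 of 11, beside 67.9% of all protein-coding genes, led by nSyb, Rdl and brp with 66.5, 3.13 and 2.95 TPM. Of those 5, Rdl, brp and pros had no tag at an annotated TSS. The genes elav, ChAT, VGlut and para had no tag and Gad1 and Syt1 were under 1 TPM. Of 8 fat body genes, Tsf1 had 135 TPM and Fbp2 had 3.57 TPM, Fbp1 and Yp3 had 0.902 and 0.195 TPM, and Lsp1alpha, Lsp2, Yp1 and Yp2 had none. Whether the accessory gland and hemocyte signal came from carried-over tissue was not tested.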

How the data were processed

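CAGE libraries were made from total testis RNA (10 µg, reads of 76 bp in control), per the labels. The deposited control table gives each tag cluster with its number of start positions, dominant start and interquantile width. The column named as TPM held whole numbers, taken here as the tag counts the authors deposited, pooled over both libraries. Builds BDGP6 and dm6 and the tools bedtools, STAR 2.7.11b and Trim Galore 0.6.6 are listed, per the submitters' processing notes. The caller of the tag clusters is not named by them. The clustered positions, widths and dominant starts were used as the authors deposited them.

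Counts were scaled to 1000000 tags. Dominant starts were placed on Ensembl release 115 gene models (BDGP6.54, the same coordinates), with annotated TSS (within 100 bp, same strand) first, then 5′ UTR, coding exon, 3′ UTR and noncoding exon, then intron, antisense and between genes. Within the window a pseudogene gave way to another gene. The placement was tested on simulated positions. Python 3.11.15, pandas 2.3.3, numpy 2.4.6 and scipy 1.17.1 were used. Named were the 20 strongest genes, the 3 largest clusters of each class off annotated TSS, the 5 broadest and 5 narrowest main clusters from 500 TPM, the 8 most even promoter pairs from 100 TPM, 5 genes with the most promoters, the 3 strongest list members and list members under 1 TPM. Other genes named were chosen after their values were seen. Of the names in 19 lists, 2 (ATPsynDL, UQCR-C1L) matched no gene. The scope and lists were chosen with earlier results of these data known. Sequence motifs at start sites were not analysed here.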

Additional observations from a re-analysis of the deposited data

How the results depend on the processing

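The share of clusters at annotated TSS was 38.4%, and became 33.1% with a 50 bp window, 59.9% with 500 bp, 35.5% with protein-coding transcripts only, 60.0% over clusters of at least 1 TPM and 83.6% from 10 TPM. The tag share there was 91.7%, and became 84.8% with 50 bp, 95.9% with 500 bp, 89.3% with protein-coding transcripts, 88.8% without the 100 largest clusters and 91.3% without the strongest gene. Sharp clusters were 26.9%, and became 20.1% at a limit of 5 bp, 37.9% at 20 bp, 22.2% from 1 TPM, 15.1% from 10 TPM and 13.6% among clusters of at least 3 start positions. Genes with several promoters numbered 594, and became 353 with a 20% minimum share and 1466 with all clusters counted. They were 772 with a 5% minimum, 618 at any distance and 398 over 500 bp apart. Genes measured ranged from 8126 (5 TPM) to 10763 (0.5 TPM) around 10330. Leaving out the strongest gene and requiring 3 positions were chosen after seeing the data.

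No paired analysis was possible because the libraries of each group were pooled in 1 value and only 1 group is described. For the same reason no library was left out in turn, and the spread between the control libraries is not known. Shares are of clusters as called, so weak clusters, 43.5% of them under 1 TPM, weigh as much as strong ones. Isolated single starts of up to 49 tags (0.867 TPM) are not listed, so a gene without tags has no bound from depth alone.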
